A study of Arabidopsis with 12 samples.

Results

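The comparison described here is between tori 35-7 and Col-0 seedlings of Arabidopsis under water deficit. It sets 3 tori 35-7 arrays against 3 Col-0 arrays, 6 of the 12 arrays of the series, over 16548 genes whose probe sets are annotated to 1 gene. All seedlings grew for 5 days at 22 °C and were then kept for 72 h on a new medium, so they were 8 days old when whole seedlings were taken. The tori 35-7 water deficit and Col-0 water deficit groups were moved to 2% agar, and the tori 35-7 control and Col-0 control groups, which are used below as a second pair, to 0.8% agar. Col-0 is the usual laboratory accession. The labels give tori 35-7 as a genotype and do not say how the line was made, and the series title ties the study to TOR.

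TOR, the Target of Rapamycin, is a protein kinase that promotes growth, protein synthesis and cell wall expansion when sugar, nitrogen and water allow it. Its counterpart is the kinase SnRK1, which is active when energy is short and switches on genes that release stored carbon. In plants, low TOR activity is known to alter starch storage, autophagy and ribosome production. Hardened agar holds water more tightly than soft agar, so that roots take it up less easily.

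Levels are log2 probe set levels, and differences are tori 35-7 minus Col-0 on that scale, given with the standard error (SE) of a model fitted to all 12 arrays. A gene was counted as higher or lower where its adjusted p-value was below 0.05. The labels do not say that the 3 replicates of a group came from separate cultures, so the p-values measure only the spread between these samples, which may be technical. The table holds no detection calls, so it is not known which of the dimmest levels lay above background. In whole seedlings, fewer cells of a type and less RNA per cell cannot be told apart.

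In all, 136 of the 16548 genes (0.822%) differed, 82 of them higher (0.496%) and 54 lower (0.326%) in tori 35-7. At an unadjusted p of 0.05 there were 2126 (12.8%). The 3 arrays of each genotype did not overlap at any of the 136 genes, which was also the case for 16.7% of all genes. Differences of at least 2-fold were seen at 36 of the 136, 24 higher and 12 lower. The split between directions depended on scaling and on single arrays: 119 higher and 45 lower passed with each array centred on its median (72.6% higher, against 60.3%), and 86 higher and 148 lower passed without Col-0 water deficit replicate 1.

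That replicate stood apart from the other 11 arrays. Its median correlation with them was 0.950, where each of the other arrays had 0.971 to 0.980, and its interquartile range was 2.56, against 2.68 for tori 35-7 control replicate 1 and 2.91 to 3.08 for the other 10. Where leaving it out changed a call, turned a sign or clearly changed a size, the value without it is given as well. Checks of the tissue were limited, since markers of mesophyll, xylem, phloem, endodermis and dividing cells had no annotated probe sets among the 16548 genes. Of 8 stomatal lineage markers 4 were measured and none passed. Their summed linear level was 106, 117 and 133 in the tori 35-7 arrays, against 101, 148 and 165 in the Col-0 arrays. The 101 is Col-0 replicate 1, and without it every Col-0 sum was above every tori 35-7 sum. The stomatal regulators FMA and MUTE and the peptide STOMAGEN had differences of -0.41, -0.47 and -0.44, SPCH had 0.37 (-0.09 without that array), and the median of the 4 was -0.42 (-0.46 without it). The part of these markers in the results was not tested.

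**Figure D1:**
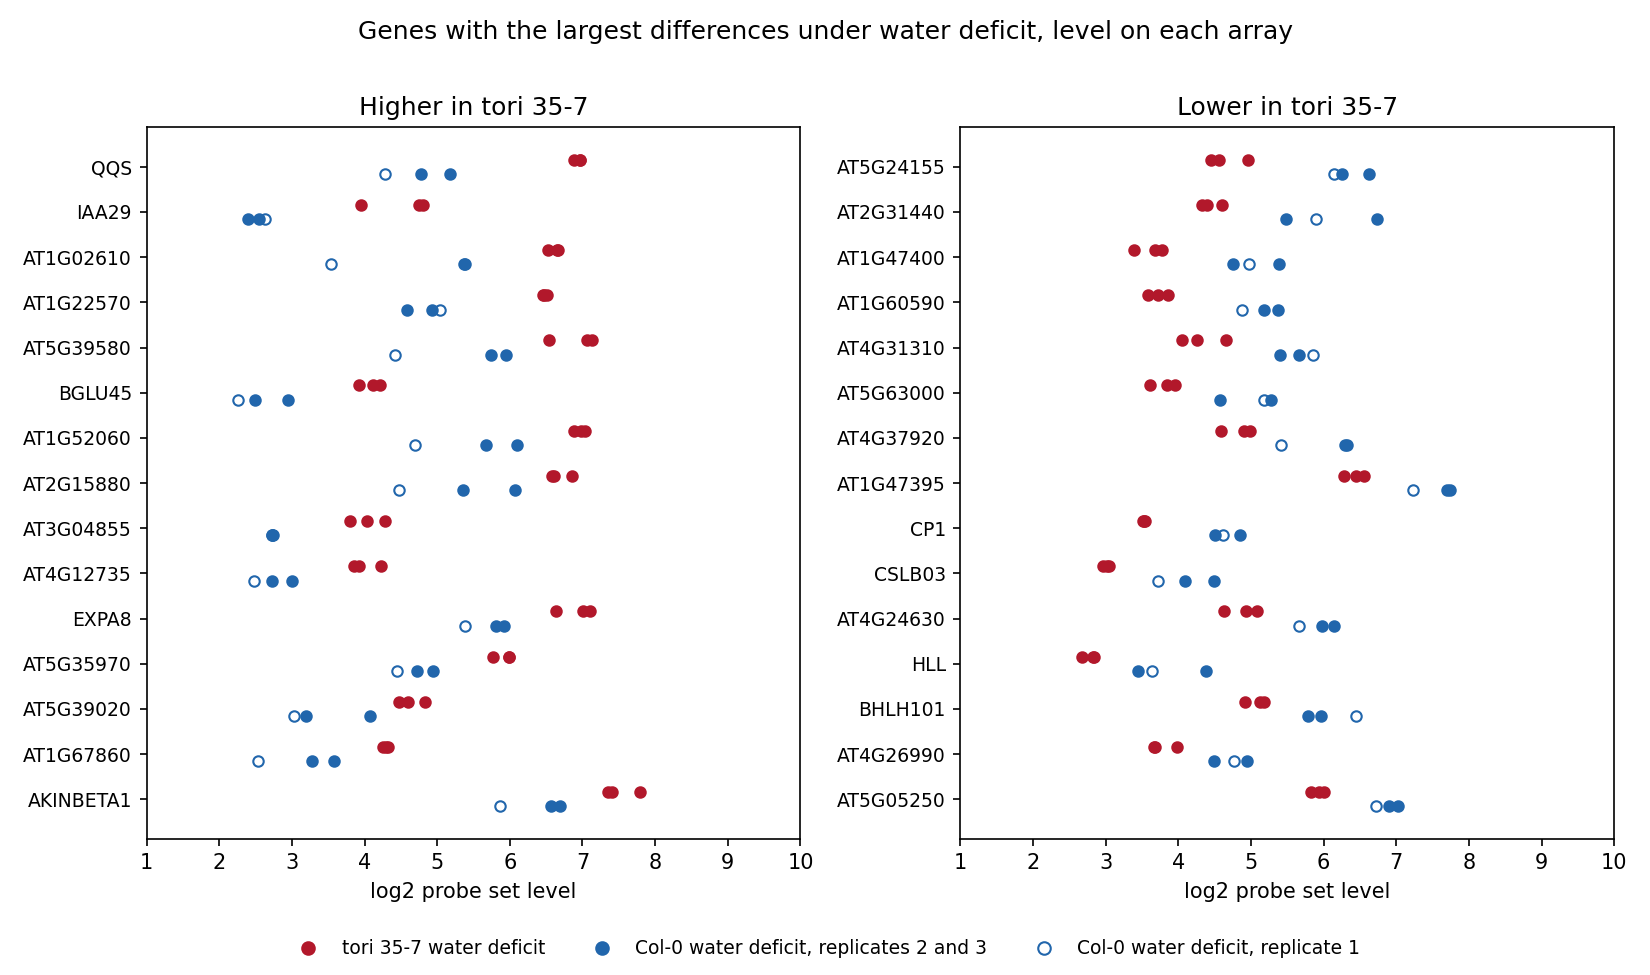
Log2 level (x axis) of the 15 genes with the largest higher (left) and lower (right) differences, 1 point per array, with tori 35-7 water deficit in red above Col-0 water deficit in blue and Col-0 replicate 1 as an open circle. The genotypes are separated at every gene, from 2.20 at QQS to -1.69 at AT5G24155, and the open circle is the lowest Col-0 point at 12 of the 15 higher genes.

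Among the genes higher in tori 35-7, those of carbon and energy balance had the largest single difference. QQS (AT3G30720), an orphan gene of Arabidopsis that shifts carbon between starch and protein, had levels of 6.97, 6.97 and 6.89 in tori 35-7, against 4.28, 4.77 and 5.18 in Col-0. The tori 35-7 arrays lay close together and far above all Col-0 arrays, and Col-0 replicate 1 was the lowest. The difference was 2.20 ± 0.20, or 4.59-fold (adjusted p = 0.000202), and it was 1.97 without Col-0 replicate 1 (adjusted p = 0.000164). QQS kept its call under each of the 25 other settings tried. It also differed between the genotypes on control medium, where it stood at 7.33, 7.00 and 7.00 in tori 35-7, against 4.75, 5.22 and 5.20 in Col-0 (2.05 ± 0.20, adjusted p = 0.000326).

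AKINBETA1 (AT5G21170), which encodes a beta subunit of the SnRK1 kinase complex, had levels of 7.35, 7.41 and 7.79 in tori 35-7, against 5.86, 6.56 and 6.69 in Col-0. The groups were separated, with Col-0 replicate 1 again the lowest array. It was 2.21-fold higher in tori 35-7 (1.15 ± 0.20, adjusted p = 0.0203), and 0.89 without Col-0 replicate 1 (adjusted p = 0.0182). AT3G15450, a gene known to be induced by sugar starvation, had levels of 8.42, 8.37 and 8.59 in tori 35-7, against 7.60, 7.67 and 7.54 in Col-0. All of its arrays were tight within each genotype, and the difference was 0.86 ± 0.16 with and 0.86 without Col-0 replicate 1 (adjusted p = 0.0254 and 0.0306). Of the 21 genes listed for energy starvation and SnRK1, 3 were measured, and both of these passed, where 0.496% of all genes were higher. The remaining one, AT4G16360, which encodes another SnRK1 beta subunit, had a difference of 0.32 ± 0.16 (adjusted p = 0.41), and of 0.18 without Col-0 replicate 1. This list, like those of starch and auxin genes below, was chosen with earlier results of these arrays known. Its direction is not independent evidence.

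Of 21 listed genes of starch and carbon allocation, 4 were measured and QQS alone passed, where 0.496% of all genes were higher. The starch branching enzyme SBE2.2 had a difference of 0.42 (adjusted p = 0.312), or 0.19 without Col-0 replicate 1. The plastid disproportionating enzyme DPE1 had one of 0.09 (-0.01 without it), and the water dikinase AT5G26570, which phosphorylates starch for its breakdown, one of -0.12 (-0.09 without it). AT4G24450, a member of the same dikinase family outside that list, was higher, at 3.50, 3.52 and 3.38 in tori 35-7, against 2.93, 2.53 and 2.68 in Col-0. Here Col-0 replicate 1 was the highest Col-0 array and still below every tori 35-7 array. The difference was 0.75 ± 0.14 (adjusted p = 0.0214), or 0.86 without that array, and 0.71 on control medium (adjusted p = 0.0344). The calls of AKINBETA1, AT3G15450 and AT4G24450 were lost without each of the 3 tori 35-7 water deficit arrays in turn, with adjusted p-values of 0.0556 to 0.119, 0.0855 to 0.148 and 0.0855 to 0.113.

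Growth hormone genes followed. IAA29 (AT4G32280), an auxin-induced repressor of auxin response, had levels of 3.95, 4.75 and 4.80 in tori 35-7, against 2.63, 2.55 and 2.40 in Col-0. The Col-0 arrays were close together, and tori 35-7 replicate 1 was the lowest of its group. The difference was 1.97 ± 0.20, or 3.92-fold (adjusted p = 0.000592), and 2.02 without Col-0 replicate 1. On control medium IAA29 stood at 3.04, 3.24 and 2.83 in tori 35-7, against 2.25, 2.56 and 2.61 in Col-0, a difference of 0.57 that did not pass (adjusted p = 0.312). Those groups did not overlap either, but they lay much closer together.

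GH3.3 (AT2G23170), which encodes an enzyme that conjugates auxin to amino acids, had levels of 4.31, 4.10 and 4.36 in tori 35-7, against 2.95, 3.78 and 3.04 in Col-0. Its difference of 0.999 ± 0.20 (adjusted p = 0.0363) was 0.84 without Col-0 replicate 1, where it no longer passed (adjusted p = 0.0604). The related GH3 gene WES1 behaved the other way. It had 0.73 ± 0.16 (adjusted p = 0.0525) with all arrays and passed without Col-0 replicate 1 at 0.79 (adjusted p = 0.0368). Of 18 listed auxin response genes 5 were measured, and 2 passed as higher in either case. Over all genes 0.496% were higher with all arrays and 0.52% without Col-0 replicate 1. GH3.4 had a difference of -0.12 (-0.04 without Col-0 replicate 1). IAA20 had -0.45, with Col-0 replicate 1 at 3.49 and the other Col-0 arrays at 1.98 and 1.77, and without that array its sign turned (0.08). GID1C, a gibberellin receptor, and OPCL1, an enzyme of jasmonate synthesis, were higher by 0.77 ± 0.16 and 0.76 ± 0.15 (adjusted p = 0.0396 and 0.0366), and neither passed without Col-0 replicate 1 (0.0571 for both). GH3.3 was called in 4 of the 12 fits that left out 1 array, and was lost without Col-0 water deficit replicates 1 and 3, without each Col-0 control array and without each tori 35-7 water deficit array (adjusted p = 0.0545 to 0.163).

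**Figure D2:**
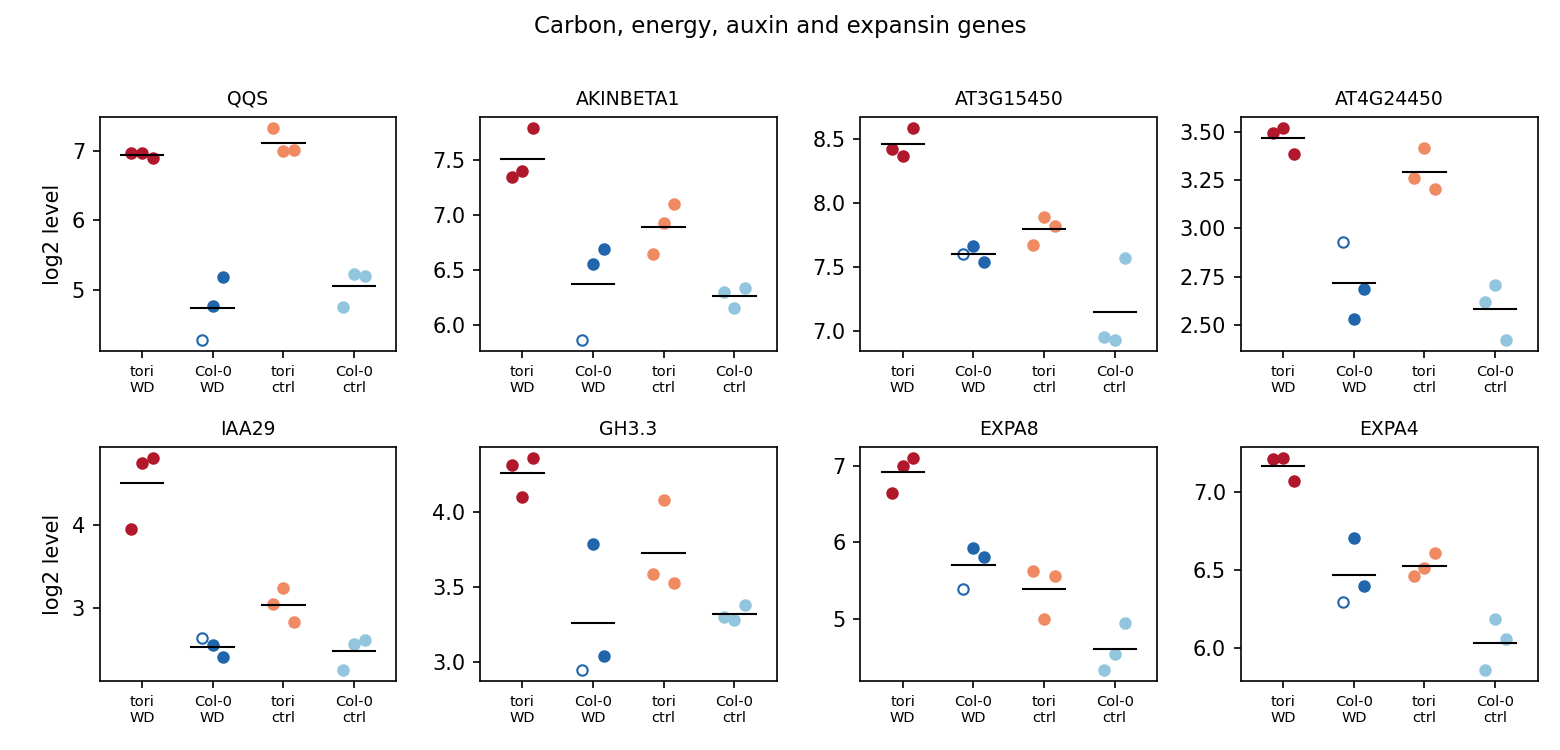
Log2 level (y axis, own scale per panel) of 8 genes of carbon and energy balance, auxin and cell wall loosening, 1 point per array, in tori 35-7 and Col-0 under water deficit (WD) and on control medium (ctrl), with group means as lines and Col-0 water deficit replicate 1 open. QQS differs by 2.20 under water deficit and 2.05 on control medium, and IAA29 is at 4.50 in tori 35-7 under water deficit, against 2.53 in Col-0.

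Of the called genes given a cell wall role, 7 were higher and 2 lower, where 82 of all 136 calls were higher. How many genes of that kind were measured was not counted, so the split is not a result about wall genes. Among 48 genes classed as cell wall by name, 2 were higher and 1 lower, where 0.822% of all genes were called. Their median difference was 0.01. EXPA8 (AT2G40610), an expansin that loosens walls during cell growth, had levels of 6.64, 7.01 and 7.10 in tori 35-7, against 5.38, 5.92 and 5.81 in Col-0. EXPA4 (AT2G39700), another expansin, had 7.22, 7.22 and 7.07 in tori 35-7, against 6.30, 6.71 and 6.40 in Col-0. Both were separated, by 1.21 ± 0.21 for EXPA8 (adjusted p = 0.0198) and 0.70 ± 0.14 for EXPA4 (adjusted p = 0.0314), and both passed without Col-0 replicate 1. The root hair expansins EXPA7 and EXPA18, which served as root hair markers, had differences of -0.14 and -0.05 (-0.17 and 0.09 without that array). BGLU45, a beta-glucosidase that acts on glucosides of lignin precursors, was at 4.12, 4.22 and 3.92 in tori 35-7, against 2.25, 2.49 and 2.94 in Col-0. Its difference of 1.53 ± 0.18 (2.88-fold, adjusted p = 0.00203) was 1.37 without Col-0 replicate 1, and BGLU45 passed in every setting.

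The leucine-rich repeat extensin AT2G15880, a structural wall protein that is also on the list of genes induced by low oxygen, had levels of 6.61, 6.58 and 6.86 in tori 35-7, against 4.47, 5.35 and 6.07 in Col-0. The Col-0 arrays were widely spread, with replicate 1 lowest, and the difference was 1.38 ± 0.29 with it (adjusted p = 0.0423) and 0.97 without it (0.0439). The other higher wall genes were BGLU25 (0.82 ± 0.15), the glycosyl hydrolase gene AT5G20950 (0.70 ± 0.13) and AT1G09460 with a carbohydrate-binding domain (0.86 ± 0.16). BGLU25 was lost without each tori 35-7 water deficit array (adjusted p = 0.0855 to 0.117). AT2G15880 was called in 3 of the 12 fits that left out 1 array and EXPA4 in 7. AT2G15880 was lost without each array of the Col-0 control and tori 35-7 water deficit groups, without tori 35-7 control replicates 2 and 3 and without Col-0 water deficit replicate 2 (adjusted p = 0.0626 to 0.186). EXPA4 was lost without replicate 3 of either Col-0 group and without each tori 35-7 water deficit array (0.0507 to 0.132), and EXPA8 without tori 35-7 water deficit replicates 2 and 3 (0.0944 and 0.109).

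A pair of wall genes went the other way. AT1G60590, a pectin lyase-like gene, had levels of 3.73, 3.86 and 3.58 in tori 35-7, against 4.87, 5.18 and 5.37 in Col-0. CSLB03, a cellulose synthase-like gene, had 3.05, 3.02 and 2.96 in tori 35-7, against 3.72, 4.49 and 4.09 in Col-0. Every tori 35-7 array was below every Col-0 array at both. AT1G60590 had a difference of -1.42 ± 0.19 (2.67-fold, adjusted p = 0.0046), which passed in every setting, and on control medium its difference was -0.04. CSLB03 had -1.09 ± 0.21 (adjusted p = 0.0287), -1.28 without Col-0 replicate 1 and -0.14 on control medium, and was lost without Col-0 control replicate 2, Col-0 water deficit replicate 2 and each tori 35-7 water deficit array (adjusted p = 0.0508 to 0.148).

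Roles could be given to 89 of the 136 genes. They were assigned by hand from textbook knowledge of the gene families after the calls were known, so the counts are a description and carry no test. The 55 higher genes with a role held 9 of ubiquitin ligases and proteases, 8 transporters, 8 receptors, kinases and defence proteins, 7 cell wall genes, and 4 each of hormones and of carbon and energy signalling. The 34 lower genes held 5 each of iron deficiency and of chromatin, transcription and RNA, 4 each of translation and of ubiquitin ligases and proteases, and 3 each of photosynthesis and of amino acids and respiration. No iron-deficiency gene was higher, and no gene of hormones or of carbon and energy signalling was lower. A further 27 higher and 20 lower genes had no role. Classes set by gene names covered 888 of the 16548 genes, since 1750 have a name other than the locus number. The 118 transcription factors so named held 1 higher and 1 lower gene, and the 110 small signalling peptides and 26 cytochromes P450 held none. Without Col-0 water deficit replicate 1 the transcription factors held 2 higher and 1 lower gene, and the peptides 1 higher gene. Over all genes 0.822% were called, so counts this small are not a result about these classes.

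Transport was led by AT1G22570, a carrier of the major facilitator family, with levels of 6.46, 6.51 and 6.46 in tori 35-7, against 5.04, 4.59 and 4.92 in Col-0. Its arrays were almost level within tori 35-7, and its 1.63 ± 0.14 (3.08-fold, adjusted p = 0.000202) passed in every setting. On control medium the difference was 0.54 (adjusted p = 0.139). The MATE efflux carriers AT1G71140 (1.05 ± 0.15) and AT3G23550 (0.96 ± 0.15), which export organic compounds from cells, the cation/proton exchanger CHX16 (0.97 ± 0.19) and the major facilitator AT5G14120 (0.77 ± 0.14) were also higher and passed without Col-0 replicate 1. The transporters AT4G36850, AT4G18205 and AT5G02170 passed only with it. The single lower gene of the group was AT5G60800, with a heavy metal binding domain (-0.65 ± 0.13).

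Of the called genes given a role as receptor, kinase or defence protein, 8 were higher and 1 lower, where 82 of all 136 calls were higher. The number of genes of that kind measured was not counted, so the split is not a result about the group. The jacalin-type lectin AT1G52060, a carbohydrate-binding protein, had levels of 6.88, 6.98 and 7.03 in tori 35-7, against 4.69, 5.67 and 6.09 in Col-0. Col-0 replicate 1 was well below the other Col-0 arrays there, and the difference was 1.48 ± 0.26 with it (adjusted p = 0.0209) and 1.08 without it (0.01). The chitinase family gene AT2G43620 (1.09 ± 0.21), the thaumatin family gene AT5G24620 (0.71 ± 0.13), the leucine-rich repeat genes AT1G33610 and AT3G47090 (1.12 ± 0.22 and 0.72 ± 0.15) and the kinases AT3G59350 and AT1G66920 (1.02 ± 0.16 and 0.64 ± 0.13) passed with and without that array. The malectin-type receptor kinase AT5G39020 (1.21 ± 0.25, adjusted p = 0.038) did not pass without it (1.0, adjusted p = 0.0668). The class III peroxidase AT5G39580, an enzyme of the cell surface, stood at 6.54, 7.13 and 7.06 in tori 35-7, against 4.42, 5.74 and 5.94 in Col-0 (1.54 ± 0.30, adjusted p = 0.0287, and 1.06 without Col-0 replicate 1). AT1G52060 was lost without each tori 35-7 water deficit array (adjusted p = 0.0742 to 0.109), AT5G39580 without these and Col-0 control replicate 2 (0.0507 to 0.155), and AT5G39020 without these, without each Col-0 control array and without Col-0 water deficit replicates 1 and 3 (0.0541 to 0.17).

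Protein turnover genes moved both ways. The RING-type zinc finger gene AT1G02610 had levels of 6.52, 6.66 and 6.66 in tori 35-7, against 3.54, 5.39 and 5.37 in Col-0. Col-0 replicate 1 lay far below the other Col-0 arrays, so that the difference was 1.85 ± 0.37 with it (adjusted p = 0.0359) and 1.23 without it (0.0121). It differed by 1.83 on control medium (adjusted p = 0.0473). AT2G03120, classed as a protease by name, was higher, with differences of 0.51 to 0.69 over the other settings. AT2G03120 was called in 3 of the 12 fits that left out 1 array (adjusted p = 0.0515 to 0.163 where it was lost). CP1, a cysteine protease, was lower, at 3.54, 3.52 and 3.53 in tori 35-7, against 4.61, 4.85 and 4.50 in Col-0 (-1.13 ± 0.13, adjusted p = 0.00124), and it passed in every setting. AT1G02610 was called in 5 of the 12 fits that left out 1 array, and was lost without each array of the Col-0 control and tori 35-7 water deficit groups and without tori 35-7 control replicate 2 (adjusted p = 0.0528 to 0.157).

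Of the called genes given a photosynthesis role, 1 was higher and 3 were lower, where 82 of all 136 calls were higher. How many genes of that kind were measured was not counted, so the split is not a result about photosynthesis genes. Among 20 genes classed as photosynthesis by name, 1 was higher and none lower, with a median difference of 0.10. Without Col-0 replicate 1, 2 of these 20 were higher and none lower. LHCB4.2, an antenna protein of photosystem II, had levels of 6.19, 6.23 and 6.01 in tori 35-7, against 5.43, 5.29 and 5.06 in Col-0 (0.88 ± 0.15, adjusted p = 0.0198, and 0.97 without Col-0 replicate 1). Lower were AT2G44920, of the thylakoid lumen (-0.88 ± 0.15), AT2G42130, of a plastid lipid-associated family (-0.60 ± 0.12), and psbN, which helps to assemble photosystem II. psbN was the single gene to pass among 63 of the chloroplast genome (-0.82 ± 0.17, adjusted p = 0.0428), and it did not pass without Col-0 replicate 1 (0.0696). The median difference of the 63 was 0.08.

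Several genes of the iron-deficiency response were lower. In Arabidopsis, bHLH transcription factors of subgroup Ib, among them BHLH101, switch on iron uptake, IRONMAN peptides promote that response, and PYE is a bHLH factor that restrains part of it. All of these rise when plants lack iron. Of 24 listed genes 10 were measured, 5 were lower, none was higher and 5 did not pass, where 0.326% of all genes were lower. The list was put together with earlier results of these arrays known, so its direction is not independent evidence.

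AT1G47400, an IRONMAN gene, had levels of 3.68, 3.77 and 3.39 in tori 35-7, against 4.97, 5.39 and 4.75 in Col-0. AT1G47395, the neighbouring IRONMAN gene on chromosome 1, had 6.55, 6.45 and 6.28 in tori 35-7, against 7.24, 7.69 and 7.74 in Col-0. Each tori 35-7 array was clearly below each Col-0 array at both genes. AT1G47400 was lower with a difference of -1.42 ± 0.17 (2.68-fold, adjusted p = 0.00218) and AT1G47395 with -1.13 ± 0.16 (2.19-fold, adjusted p = 0.00644), and without Col-0 replicate 1 with -1.45 and -1.29. The 2 genes are much alike, and it is uncertain whether each probe set measures its own gene alone.

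BHLH101 (AT5G04150) had levels of 4.92, 5.12 and 5.18 in tori 35-7, against 6.44, 5.79 and 5.96 in Col-0. Col-0 replicate 1 was the highest array at this gene, unlike at most others, so that the difference of -0.99 ± 0.17 (adjusted p = 0.0198) was -0.80 without it (adjusted p = 0.0182). PYE (AT3G47640) had levels of 4.18, 4.52 and 4.21 in tori 35-7, against 4.73, 5.44 and 5.43 in Col-0. Here replicate 1 was the lowest Col-0 array and close to the highest tori 35-7 array, and the difference was -0.89 ± 0.18 with it (adjusted p = 0.0349) and -1.13 without it (0.00207). AT5G05250, a gene induced by iron deficiency, had levels of 5.94, 6.01 and 5.82 in tori 35-7, against 6.72, 6.90 and 7.03 in Col-0 (-0.96 ± 0.14, adjusted p = 0.00644). These arrays were tight and clearly apart. AT1G47400, AT1G47395 and AT5G05250 passed whichever of the 12 arrays was left out. None of the 5 passed when only the 6 water deficit arrays were fitted, with adjusted p-values of 0.0536 for AT1G47400, 0.0907 for AT1G47395, 0.0866 for AT5G05250, 0.142 for BHLH101 and 0.223 for PYE. BHLH101 was lost without each tori 35-7 water deficit array (adjusted p = 0.082 to 0.0853), and PYE without these, without each Col-0 control array, without Col-0 water deficit replicates 2 and 3 and without tori 35-7 control replicate 3 (0.0515 to 0.16).

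The other measured members were the iron-induced genes AT1G13609 (-1.15 ± 0.48, adjusted p = 0.325) and AT2G14247 (-0.61 ± 0.24, adjusted p = 0.295), the genes AT1G18910 (-0.26, and -0.09 without Col-0 replicate 1) and AT1G74770 (-0.12) of ubiquitin ligases that curb the response, and AT3G12900 (-0.08), an enzyme of coumarin synthesis. AT1G13609 varied widely, with 6.31, 5.82 and 5.59 in tori 35-7, against 6.57, 8.44 and 6.15 in Col-0. The median difference of the 10 was -0.93, and -0.92 without Col-0 replicate 1, where the median of all genes was -0.01 and 0.01. On control medium the median of the 10 was -0.27, and AT1G47395 was the single member to pass there (-0.83 ± 0.16, adjusted p = 0.0344). BHLH101 was level on that medium, with 2.85, 3.06 and 3.20 in tori 35-7, against 2.91, 3.20 and 2.94 in Col-0.

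**Figure D3:**
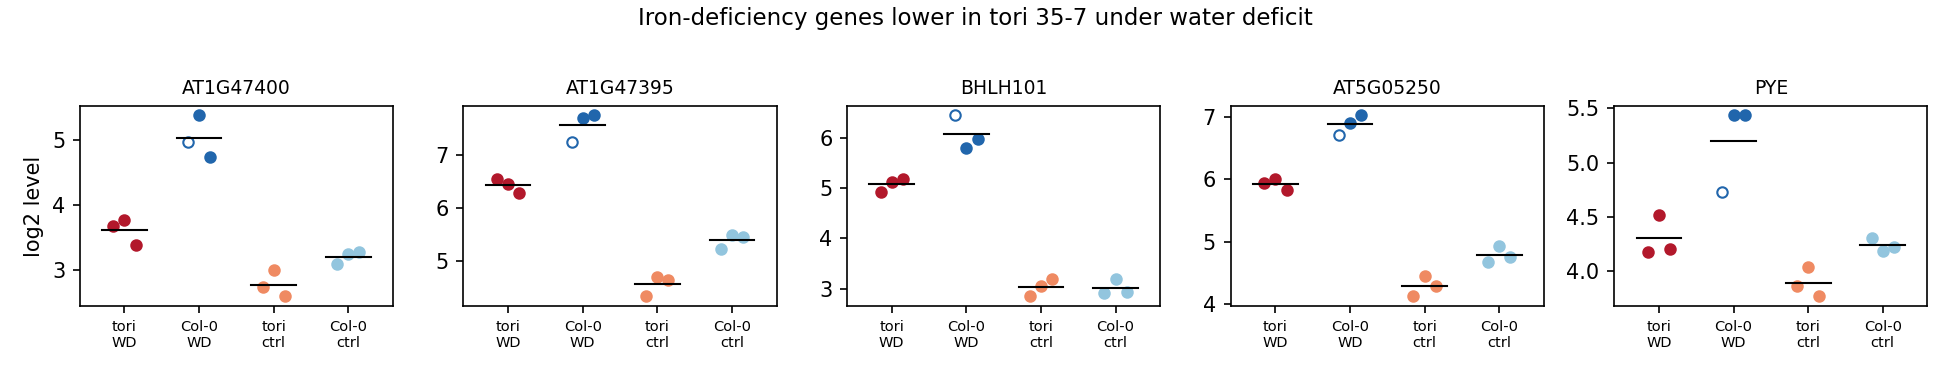
Log2 level (y axis, own scale per panel) of the 5 iron-deficiency genes that were lower in tori 35-7 under water deficit (WD), 1 point per array, with both control groups (ctrl), group means as lines and Col-0 water deficit replicate 1 open. By group mean both genotypes stand above their own controls, and tori 35-7 under water deficit lies below Col-0 under water deficit in every panel, for example 5.07 against 6.06 at BHLH101.

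Further genes that were lower belong to protein synthesis. HLL, a ribosomal protein of mitochondria, had levels of 2.67, 2.83 and 2.84 in tori 35-7, against 3.63, 4.39 and 3.45 in Col-0, a difference of -1.04 ± 0.22 (adjusted p = 0.0383). The cytosolic ribosomal protein gene AT1G15250 (-0.86 ± 0.15), the plastid ribosomal protein gene AT3G54210 (-0.56 ± 0.12) and AT3G59630 (-0.86 ± 0.15), of the modification of elongation factor 2, were lower as well, and all 4 passed without Col-0 replicate 1. AT5G24490, a plastid ribosome-associated protein, was higher (0.63 ± 0.13). Of 20 listed factors of nucleolar ribosome assembly 8 were measured and none passed, with a median of 0.12 (0.07 without Col-0 replicate 1). HLL was called in 4 of the 12 fits that left out 1 array, and was lost without each tori 35-7 water deficit array, without Col-0 control replicates 2 and 3, without tori 35-7 control replicates 2 and 3 and without Col-0 water deficit replicate 2 (adjusted p = 0.0507 to 0.151).

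Genes of chromatin and RNA included HTB2, a histone H2B, with levels of 5.86, 5.97 and 5.70 in tori 35-7, against 6.98, 6.98 and 6.30 in Col-0 (-0.91 ± 0.17, adjusted p = 0.0237). The groups did not overlap, with Col-0 replicate 3 the nearest to tori 35-7. TEX1, of the THO complex that exports mRNA (-0.73 ± 0.13), and the bromodomain gene AT1G58025 (-0.77 ± 0.15) were also lower. So were the RNA helicase gene AT2G01130 (-0.89 ± 0.17) and the bHLH gene AT5G50915 (-0.89 ± 0.18). The bZIP gene BZIP24 was higher (0.81 ± 0.13), and was lost without each tori 35-7 water deficit array (adjusted p = 0.0554 to 0.0838). In amino acid metabolism ASPGA1, an asparaginase that releases ammonium from asparagine, had levels of 2.37, 2.53 and 2.65 in tori 35-7, against 3.53, 3.55 and 3.29 in Col-0 (-0.94 ± 0.14, adjusted p = 0.00852). It passed whichever single array was left out, and its difference on control medium was -0.97 (adjusted p = 0.00889). The D-lactate dehydrogenase gene AT5G06580 was likewise lower on both media, with -0.86 ± 0.15 here and -1.20 on control medium.

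The largest falls included genes to which no role was given. AT5G24155 had levels of 4.96, 4.45 and 4.56 in tori 35-7, against 6.14, 6.26 and 6.62 in Col-0 (-1.69 ± 0.23, 3.22-fold, adjusted p = 0.0046). AT2G31440 had 4.60, 4.39 and 4.33 in tori 35-7, against 5.90, 6.73 and 5.49 in Col-0 (-1.60 ± 0.25, adjusted p = 0.0133), with Col-0 replicate 2 well above its group. AT5G24155 passed in every setting, and AT2G31440 was lost without tori 35-7 water deficit replicates 2 and 3 (adjusted p = 0.0673 and 0.0829). The remaining 15 largest falls not yet named were AT4G31310 (-1.32, AIG2-like), AT5G63000 (-1.21), AT4G37920 (-1.18), AT4G24630 (-1.05, a protein S-acyltransferase) and AT4G26990 (-0.96). All of these passed without Col-0 replicate 1. AT4G31310 and AT5G63000 were lost without tori 35-7 water deficit replicate 3 (0.0708 and 0.0933), AT4G26990 without replicates 1 and 3 of that group (0.0853 and 0.109), and AT4G37920 and AT4G24630 without each of its 3 arrays (0.0679 to 0.121 and 0.082 to 0.0979).

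Genes without a role were also among the largest rises. AT5G35970 had levels of 5.99, 5.76 and 5.99 in tori 35-7, against 4.45, 4.72 and 4.94 in Col-0 (1.21 ± 0.16, adjusted p = 0.0046), and passed whichever of the 12 arrays was left out. AT3G04855 (1.31 ± 0.22), AT4G12735 (1.26 ± 0.27) and AT1G67860 (1.16 ± 0.21) completed the 15 largest. AT4G12735 did not pass without Col-0 replicate 1 (1.13, adjusted p = 0.0693), nor without Col-0 water deficit replicate 2, Col-0 control replicate 2, tori 35-7 control replicate 3 and each tori 35-7 water deficit array (0.0629 to 0.188). AT3G04855 was lost without tori 35-7 water deficit replicates 2 and 3 (0.0944 and 0.102), and AT1G67860 without each array of that group (0.0855 to 0.106).

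Other pathways tied to TOR or to drying were then looked at. TOR itself had no annotated probe set among the genes analysed here. Of 16 listed genes of TOR signalling 6 were measured and none passed. RAPTOR1 and RAPTOR2, the subunits that bring substrates to the kinase, had differences of 0.17 ± 0.18 and -0.33 ± 0.19 (adjusted p = 0.745 and 0.512), and of 0.37 and -0.46 without Col-0 replicate 1. AT4G34270, a TIP41-like gene, had levels of 4.82, 4.99 and 4.77 in tori 35-7, against 5.36, 6.15 and 5.72 in Col-0. All tori 35-7 arrays were below all Col-0 arrays, and its difference of -0.88 ± 0.20 did not pass with Col-0 replicate 1 (adjusted p = 0.0569) but did without it (-1.08, adjusted p = 0.0143).

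None of 16 measured autophagy genes passed, and their median difference was 0.06 (0.02 without Col-0 replicate 1). The nearest was ATG8E, which encodes a protein of the autophagosome membrane, at 0.39 ± 0.12 (adjusted p = 0.169). Of 7 measured genes of abscisic acid and dehydration none passed. COR15B, a chloroplast-protecting cold and drought protein, had levels of 3.30, 3.92 and 3.34 in tori 35-7, against 4.12, 4.33 and 4.12 in Col-0 (-0.67 ± 0.17, adjusted p = 0.0791). AT3G28270, an At14a-like gene, had -1.01 ± 0.24 (adjusted p = 0.0643) and passed without Col-0 replicate 1 (-1.17, adjusted p = 0.0343). The dehydrins LTI30 and COR47 had differences of 0.14 and -0.23. COR15A depended on Col-0 replicate 1, with 0.53 with it and 0.01 without it, neither of which passed.

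Of 21 measured genes induced by low oxygen 2 were higher, where 0.496% of all genes were. They were AT2G15880 and AT4G27450, the latter of which also responds to sugar starvation. AT4G27450 had levels of 6.16, 6.20 and 6.28 in tori 35-7, against 4.87, 5.45 and 5.27 in Col-0 (1.02 ± 0.21, adjusted p = 0.0384). It did not pass without Col-0 replicate 1 (0.85, adjusted p = 0.0662), and was called in 4 of the 12 fits that left out 1 array. It was also lost without Col-0 water deficit replicate 3, Col-0 control replicates 1 and 2, tori 35-7 control replicate 3 and each tori 35-7 water deficit array (0.0506 to 0.163). Of the other 19, 15 had positive differences and 4 negative ones, where 7865 of all 16548 genes had positive ones. The median of the 21 was 0.21, and 0.18 without Col-0 replicate 1. This list too was chosen with earlier results of these arrays known, so its direction is not independent evidence. The alcoholic fermentation gene PDC2 had 0.28 (adjusted p = 0.518), and 0.18 without Col-0 replicate 1.

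Leaving out Col-0 water deficit replicate 1 changed the makeup of the result. Of the 234 genes called without it (1.41%), 86 were higher (0.52%) and 148 lower (0.894%). The fits shared 110 genes, 64 higher and 46 lower, which is 80.9% of the calls with the array and 47.0% of those without it. No gene of either fit changed sign. The 26 genes called only with it had adjusted p-values of 0.0512 to 0.0758 without it. At all 18 higher genes among them, replicate 1 was below both other Col-0 arrays, and at all 8 lower genes it was above both. Since these genes were chosen by losing their call without that array, its side is largely fixed by the choice.

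The 124 genes called only without it were 22 higher and 102 lower, and replicate 1 was below both other Col-0 arrays at all 102. That too is largely fixed by how these genes were chosen. The deviation of that array moved with the level of the genes. With all genes put into 4 equal classes by mean level, replicate 1 minus the mean of replicates 2 and 3 had a median of 0.216 in the dimmest class, of 4137 genes, and of -0.285 in the brightest. In the brightest class 45 genes were higher and 22 lower with the array, and 43 were higher and 70 lower without it.

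By function, every called gene passed both with and without the array in carbon and energy signalling (4 higher), cell wall (7 higher and 2 lower), iron deficiency (5 lower), translation (1 higher and 4 lower) and chromatin, transcription and RNA (2 higher and 5 lower). Of all 136 calls 80.9% were kept, and roles were given by hand after the calls were known. Counts this small are not a result about these groups. Hormones kept 1 of 4 (IAA29), transport 5 of 8 higher, and amino acids and respiration 0 of 2 higher and 2 of 3 lower. Lost in that last group were AT3G03100, of respiratory complex I (-0.61 ± 0.13, adjusted p = 0.0598 without the array), AlaAT1, an alanine aminotransferase (0.68 ± 0.15, adjusted p = 0.0574 without it), and the cytochrome c gene CYTC-2 (0.73 ± 0.15, adjusted p = 0.0512 without it).

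Of the 124 genes called only without the array, 19 have a symbol, and they were picked out here after their values were seen. The metallothionein gene MT1C had levels of 6.31, 6.52 and 6.71 in tori 35-7, against 5.71, 8.34 and 7.44 in Col-0. Replicate 1 was thus below all tori 35-7 arrays while the other Col-0 arrays were above them, and the difference was -0.65 with it (adjusted p = 0.583) and -1.37 ± 0.21 without it (0.00845). MT1C has close relatives among the metallothionein genes, and its probe set may read them too. Genes of plastid proteins that were lower without it were CcdA, of thylakoid thiol transfer (-1.01 ± 0.15), PAM68, of photosystem II assembly (-0.93 ± 0.20), and PGL34, a plastoglobulin (-0.78 ± 0.17). LTA3, of the pyruvate dehydrogenase complex (-0.74 ± 0.16), and the urease gene URE (-0.90 ± 0.19) were also lower without it. With it the differences of CcdA, PAM68, PGL34, LTA3 and URE were -0.76, -0.69, -0.16, -0.49 and -0.66, and none passed. LHB1B2, an antenna protein of photosystem II like LHCB4.2, was higher without it (0.90 ± 0.16, adjusted p = 0.0137; 0.52 with it), with 9.06, 9.23 and 9.06 in tori 35-7, against 9.35, 8.07 and 8.36 in Col-0. Antenna genes have near-identical copies, so its probe set may read several of them.

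**Figure D4:**
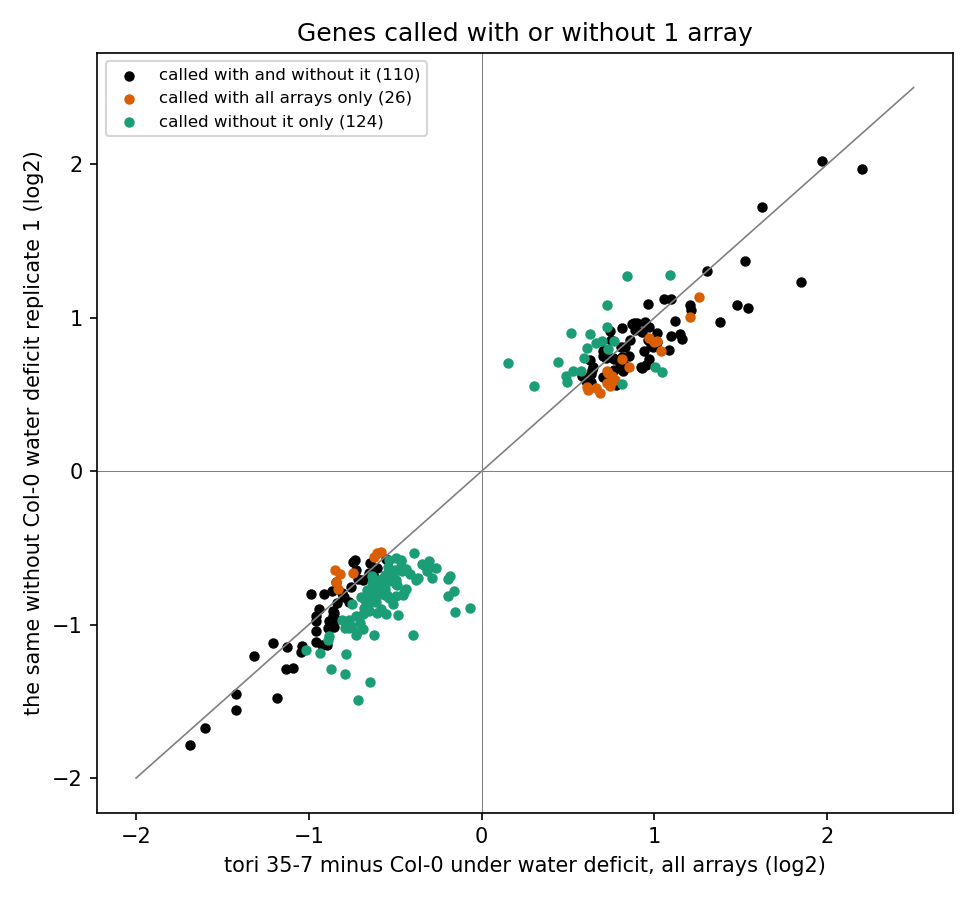
Log2 difference of tori 35-7 minus Col-0 under water deficit with all arrays (x axis) and without Col-0 water deficit replicate 1 (y axis), for the 260 genes called in either fit, with the diagonal marking equal values. The 110 genes called both ways lie along the diagonal, and most of the 124 called only without the array are lower genes below it.

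On control medium the same genotypes were compared on the 6 other arrays, which the calls under water deficit did not compare, although the spread was estimated over all 12. There 94 genes passed (0.568%), 45 higher (0.272%) and 49 lower (0.296%). Of the 82 genes higher under water deficit, 78 had a positive difference on control medium, where 48.5% of all genes did, and 10 passed. Of the 54 lower genes, 50 had a negative difference there and 9 passed. None of the 136 passed in the opposite direction. At an unadjusted p of 0.05, limma counted 47 of the 82 and 34 of the 54 on control medium, against 1650 of all genes (9.97%). The groups did not overlap there at 54 of the 82 and 37 of the 54, against 19.2% of all genes.

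The sizes were smaller on control medium. The median difference of the 82 higher genes was 0.41 on control medium and 0.87 under water deficit, and that of the 54 lower genes was -0.45 and -0.86. The genes were chosen on the water deficit arrays, so a larger value there is partly fixed by the choice. The difference between the media was tested as an interaction. It passed at none of the 136 genes (lowest adjusted p = 0.326), and at 1 of all 16548 (0.00604%). At an unadjusted p of 0.05, limma's interaction test counted 40 of the 82 and 27 of the 54, against 1006 of all genes (6.08%), and these counts too rest on the arrays used to choose the genes. Without Col-0 water deficit replicate 1 no gene passed the interaction, and 1056 of all genes did at an unadjusted p of 0.05 (6.38%).

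Some genes are picked out here after their values were seen. Differences were alike on both media for QQS, AT1G02610, ASPGA1, AT5G39580 (1.54, and 1.5 on control medium) and AT4G24630 (-1.05 and -1.17). For AT1G02610 and AT5G39580 this rested on Col-0 water deficit replicate 1: without it they differed by 1.23 and 1.06 under water deficit, with interactions of -0.59 and -0.43 that did not pass (adjusted p = 0.793 and 0.82). AT2G01130 and the lipase family gene AT5G24210 had the larger difference on control medium, with -1.70 and 1.33 there. Differences near 0 on control medium were those of AT1G60590, AT5G35970 (-0.01), AT5G39020 (-0.05), AT4G12735 (0.03) and BHLH101 (0.02). Between them lay IAA29, with an interaction of 1.41 (unadjusted p = 0.000215), and AT1G22570, with one of 1.09 (unadjusted p = 9.39e-05), neither of which passed after adjustment.

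**Figure D5:**
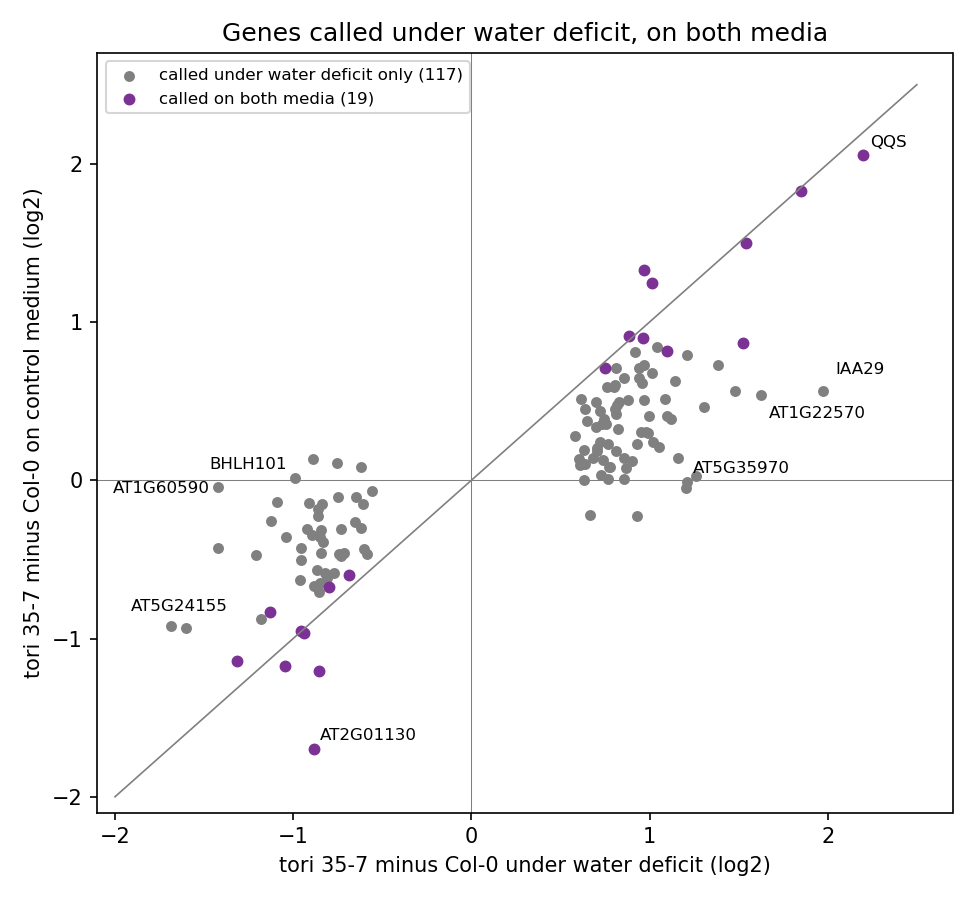
Log2 difference of tori 35-7 minus Col-0 under water deficit (x axis) and on control medium (y axis) for the 136 genes called under water deficit, with the diagonal marking equal values. The 19 genes called on both media, QQS among them, have differences of the same sign on both axes, as do 78 of the 82 higher and 50 of the 54 lower genes.

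The called genes were spread over the genome, with 0.745% to 0.945% of the measured genes of each nuclear chromosome. Among them were 2 pairs of direct neighbours in the TAIR10.1 gene order, the IRONMAN genes on chromosome 1 and AT3G59340 with the kinase gene AT3G59350 on chromosome 3, both higher (0.88 and 1.02). The members of each pair moved in the same direction.

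The number of calls fell most when a tori 35-7 water deficit array was left out. Without tori 35-7 water deficit replicate 1, 2 or 3 the count was 37, 23 or 21, of which 33, 22 and 20 were among the 136. Without Col-0 water deficit replicates 1, 2 and 3 it was 234, 205 and 241. Sizes did not follow the calls at some genes. The difference of AT1G02610 was 1.82 to 1.89 without a tori 35-7 array, where it did not pass, and 1.23 without Col-0 replicate 1, where it did. That of AT1G52060 was 1.45 to 1.52 without a tori 35-7 array and 1.08 without Col-0 replicate 1. When only the 6 water deficit arrays were fitted, 8 genes passed, 5 higher and 3 lower. In every one of the 12 fits that left out 1 array, 16 genes passed. Higher among them were QQS, IAA29, AT1G22570, BGLU45, AT5G35970, AT1G65370, AT1G71140 and AT4G29030, and lower were AT5G24155, AT1G47400, AT1G60590, AT1G47395, CP1, AT5G05250, AT1G06060 and ASPGA1.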

How the data were processed

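Whole 8-day-old seedlings were profiled on 12 arrays from biotin-labelled cRNA, 3 for each of 4 groups taken from the labels. The authors' deposited series table gave 1 value for each of 38408 probe sets and array, between 1.13 and 13.2, and these were taken as log2 values, a scale the table does not name. Per the submitters' processing notes, the authors worked with Transcriptome Analysis Console 4.0.1. How background was corrected and values were normalized is not given in the sources used here. No array was rescaled here. Array medians were 3.06 to 3.19 and the number of arrays limits the precision.

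Of the probe sets, 16722 were annotated to 1 gene by the platform annotation, 759 to several and 20927 (54.5%) to none. The brightest probe set was kept where a gene had several, which left 16548 genes. Of these 16411 matched the RefSeq gene table (TAIR10.1), which was used for names and gene order. No 2 arrays held identical values. limma 3.58.1 in R 4.3.3 (lmFit, eBayes) was fitted with 1 mean per group over all 12 arrays and no covariate. All p-values in the text are limma's, and adjusted ones are Benjamini-Hochberg values over the 16548 genes, with a threshold of 0.05. Standard errors are limma's moderated ones. The fit was tested on simulated data in which each gene had the same spread on all 12 arrays. An array that stands apart was not simulated.

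Genes named are the 15 largest rises and 15 largest falls with non-overlapping groups, members of the gene lists that passed, genes that passed in a name class holding at least 2 of them, and up to 3 members of each list with the smallest p. Others are named where a role group or array is described. The comparison, the lists and the name classes were chosen with earlier results of these data known. Name classes rest on symbols and synonyms, as the tables used here give no descriptions, and roles were assigned by hand after the calls were known. Same-numbered replicates of the 2 genotypes on the same medium did not deviate together (correlations of -0.0405 to 0.0459). The numbers were therefore not used as pairs. Same-numbered replicates on different media were not checked. The 2 narrowest arrays, Col-0 water deficit replicate 1 and tori 35-7 control replicate 1, share a replicate number, so an effect shared by that number is not excluded. In all 25 other settings were run.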

Additional observations from a re-analysis of the deposited data

Results flagged for a closer look

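One gene of all 16548 passed the test of a different genotype effect on the 2 media. AT3G10040, a transcription factor gene induced by low oxygen, had levels of 3.31, 3.10 and 3.53 in tori 35-7 under water deficit, against 2.90, 2.96 and 2.96 in Col-0, a difference of 0.38 ± 0.22 that did not pass (adjusted p = 0.526 by limma). On control medium it had 4.59, 5.53 and 5.56 in tori 35-7, against 2.20, 2.57 and 2.7 in Col-0, a difference of 2.74 (adjusted p = 9.35e-05). The interaction, water deficit minus control, was -2.36 (adjusted p = 0.0436 by limma), and it did not pass without Col-0 water deficit replicate 1, where no gene did.

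Probe sets that the annotation ties to no gene were outside the comparison of genes. When all 38408 probe sets were fitted together, 68 of these 20927 (0.325%) differed, 42 higher and 26 lower in tori 35-7, beside 45 of the annotated ones. The difference was above that of any named gene at probe set 13545557, with 8.17 ± 0.04 in tori 35-7 and 2.74 ± 0.18 in Col-0 (SD, n = 3 each; 5.43, adjusted p = 3.239e-08 by limma), and at 13545469, with 7.88 ± 0.05 in tori 35-7 and 3.39 ± 0.67 in Col-0 (4.48, adjusted p = 7.545e-05 by limma). Their differences on control medium were 5.67 and 4.80. Probe set 13465561 likewise differed by 2.31 under water deficit and by 2.5 on control medium, whereas 13469431 was lower by a difference of -2.78 under water deficit and of -0.31 on control medium.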

How the results depend on the processing

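Beside the 136 calls, 82 higher and 54 lower, leaving out 1 array at a time gave 21 to 241 calls, 11 to 147 higher and 9 to 148 lower. Calls rose to 444 (168 higher, 276 lower) without the 2 narrowest arrays, Col-0 water deficit replicate 1 and tori 35-7 control replicate 1, to 259 (150 and 109) after quantile normalization between arrays, and to 231 (109 and 122) with array weights. With quantile normalization and without Col-0 water deficit replicate 1 together, a setting chosen after seeing the data, there were 267 (129 and 138). Only 8 (5 and 3) passed when the 6 water deficit arrays alone were fitted, and 110 (47 and 63) when 5 of them were, without that replicate, which was also chosen after seeing the data. With a 2-fold minimum 36 remained (24 and 12). Median centring gave 164 (119 and 45), the 25th percentile filter 144 of 12411, trend and robust priors 133, and averaging the probe sets of each gene 136. All 38408 probe sets fitted together gave 113 called probe sets, 68 of them tied to no gene. Only 42 of the 136 genes kept their call in that fit. The fit with the replicate number as a block gave 160 (97 and 63), 120 of them shared. The labels do not say whether the numbers pair these samples. No named gene that passed changed sign in any setting. Of the named genes' results under other settings, 1293 stayed on the same side of the threshold, 203 lost a call and 27 gained one. In every setting that allowed the test, the interaction passed at none of the genes called in that same setting. The cause of these changes was not tested. Signal over background is not known.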
